A study of Rattus norvegicus with 24 samples.

Results

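The basal portion of the spiral ganglion was compared with the apical portion in hearing rats on postnatal day 60 (P60). The samples were those labelled hearing, P60 and base (3) or apex (3), which are 6 of the 24 samples of the series, and the comparison ran over all 5745 named genes, each represented by its brightest transcript. The rats were Sprague-Dawley animals of both sexes. Hearing rats were uninjected littermates of rats that had been deafened with kanamycin, and the series also holds deafened groups and P32 groups of both portions. Each sample is a biological replicate made of 4 to 6 pooled ganglia that were freed of bony capsule, spiral ligament and organ of Corti before RNA was extracted, amplified and hybridized to 1-colour Cy3 arrays. The labels do not say whether the apical and basal portions of 1 replicate number came from the same ears.

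The spiral ganglion holds the cell bodies of the neurons that carry sound signals from hair cells to the brainstem. The cochlea maps frequency along its length, with high frequencies at the base and low frequencies at the apex, and ganglion neurons of the ends differ in firing and channel content. Within the ganglion the axons are wrapped by Schwann cells and the cell bodies by satellite glia, whereas the central stretch of the cochlear nerve, beyond a glial transition zone, carries oligodendrocytes and astrocytes of the central nervous system.

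Values below are log2 of the deposited intensity unless stated otherwise, and a difference is base minus apex with its standard error from limma. The standard errors are those of the fit without a replicate block, also where a p-value with the block is given. P-values were adjusted across all 5745 genes after Benjamini and Hochberg, and a gene was called at an adjusted p below 0.05. The median intensity per sample was 2068 to 2263 in base and 2112 to 2245 in apex, and precision is limited by having 3 samples per portion. Defining neuron markers were bright in both portions, from 10.21 to 15.41 in base and from 11.29 to 15.53 in apex for 9 of 10 markers tested. Schwann cell markers ranged from 8.65 to 15.68 in base and from 8.75 to 15.70 in apex for 6 of 6. The lowest of these lay below the 25th percentile of all transcripts, which was 9.39 to 9.59 per sample. In bulk tissue a different number of cells of a type and a different amount of RNA per cell cannot be told apart. One sample outside the comparison, P32 hearing apex replicate 1, raised the number of calls when left out. All 24 samples set the estimate of spread in these tests, so the count without it is given below.

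A total of 83 genes differed between the portions, which is 1.44% of the genes tested, and 504 (8.77%) had an unadjusted p under 0.05. Among the 83 genes, 81 were higher in base (1.41%) and 2 were lower (0.0348%). Every one of the 83 differed in the same direction in 3 of 3 pairs of equal replicate number, and in none did the groups overlap, where all base values lay above all apex values for 9.59% of all genes and below them for 4.84%. The 83 were called from these same values, so both counts describe the choice of genes. The median difference over all genes was -0.04 log2 units, with 2506 genes above 0. Among the 81 genes, 53 differed by more than 2 log2 units and 21 by more than 3. With the replicate number as a block, 370 genes passed (6.44%), 301 higher in base (5.24%) and 69 lower (1.2%), and these held all 83. These shares of all genes are the background of the list counts below. Leaving a pair out of the blocked fit gave 10 calls without pair 1, 114 without pair 2 and 2 (Slc6a12 and Thrsp) without pair 3, so most calls of the block given below are lost without pair 1 or pair 3.

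The number of calls depended on single samples. It was 32 without apex replicate 1, 22 without apex replicate 3, 37 without base replicate 1, 39 without base replicate 2 and 17 without base replicate 3, against 82 without apex replicate 2. Without P32 hearing apex replicate 1 it was 163, including all 83. The genes called whichever of the 6 samples was left out numbered 14: Fst, lower in base, and Mog, Enpp2, Ntsr2, Fabp7, Scrg1, Mmd2, Rpe65, Cbs, Thrsp, Adtrp, Slc22a8, Slc6a20a and Slc25a21, higher in base. On the 16-sample platform alone (replicates 2 and 3) 16 genes passed, all among the 83. The lowest apical value of the 81 genes was in replicate 3 for 52 genes, in replicate 2 for 16 and in replicate 1 for 13.

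**Figure D1:**
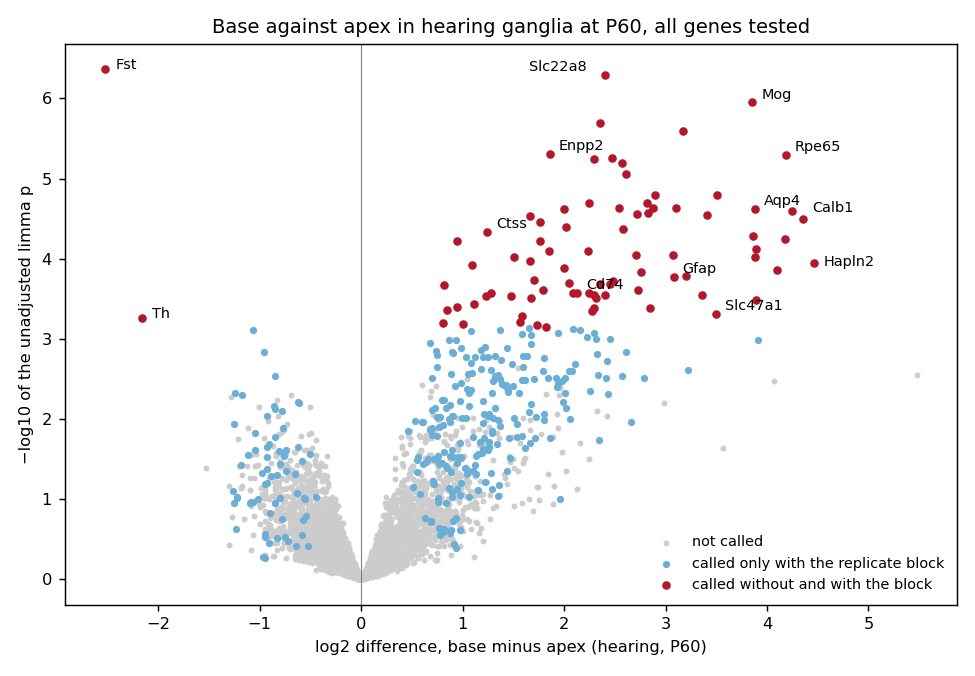
Each point is 1 of 5745 genes, with the log2 difference (base minus apex) on the x axis and the negative log10 of the unadjusted limma p on the y axis. The 83 called genes lie on the right except Fst and Th, and the genes called with the replicate block alone lie on both sides.

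Genes typical of oligodendrocytes, the myelinating glia of the central nervous system, were higher in base. Of 14 tested genes of this list 7 rose and 0 fell (8 and 0 with the block), 14 were above 0, and the median difference was 1.54 log2 units against -0.04 over all genes. Over all genes 1.41% rose, 5.24% with the block, and 2506 of 5745 were above 0. Mog, a glycoprotein on the outer surface of central myelin, had 13.34, 12.44 and 13.41 in base and 10.47, 8.73 and 8.43 in apex. The lowest basal sample of Mog was 1.97 log2 units above the highest apical one, and the difference was 3.85 ± 0.53 (adjusted p = 0.00215). Mobp, a basic protein of central myelin, had 14.04, 13.21 and 13.10 in base and 11.23, 9.58 and 6.80 in apex. The portions did not overlap for Mobp either (4.24 ± 0.75, adjusted p = 0.00675), but the 3 apical samples spread over more than 4 log2 units, with replicate 3 lowest. Hapln2, a link protein of the matrix around central nodes of Ranvier, had 10.13, 9.71 and 12.02 in base and 6.95, 5.43 and 6.08 in apex.

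Hapln2 had the largest difference of any called gene (4.47 ± 0.91, adjusted p = 0.015). Its apical values are dim: over 1184 olfactory receptor genes, which serve smell in the nose, the median was 3.34 and the 95th percentile 5.86, and apical replicate 2 of Hapln2 lay below that percentile. Of the 81 genes higher in base, 0 had an apical mean below that percentile and 4 had at least 1 apical sample below it. Klk6, a serine protease of oligodendrocytes, had 13.98, 14.60 and 14.57 in base and 11.44, 11.79 and 8.34 in apex (3.86 ± 0.73). Ermn, a cytoskeletal protein of the oligodendrocyte (ermin), had 12.52, 12.09 and 11.93 in base and 9.02, 8.06 and 7.16 in apex (4.10 ± 0.85, adjusted p = 0.0175). Enpp2, the lysophospholipase autotaxin, differed less (1.86 ± 0.29, adjusted p = 0.00366), and its samples lay close together, at 14.80, 14.21 and 14.46 in base and 12.83, 12.86 and 12.20 in apex. Cldn11, the tight junction protein of central myelin and of strial basal cells, had 13.29, 13.57 and 13.84 in base and 11.77, 12.48 and 12.03 in apex (1.47 ± 0.33). The summed linear intensity of the list was 124616 to 154341 in base and 43025 to 58858 in apex. Between 2 and 6 of the list's genes passed when 1 of the 6 samples was left out, 2 without base replicate 3 and 4 without apex replicate 3, and on the 16-sample platform alone 1 did. In the blocked fit 1 (Mog) passed without pair 1, 6 without pair 2 and 0 without pair 3. The 3 defining markers tested of 5, Mog, Mobp and Hapln2, summed to 15846 to 28267 in base and 524 to 3934 in apex, none of them at 0, and the part that the number of oligodendrocytes has in the other differences was not tested.

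The promoter of Mobp is shown because this gene had the third largest difference of the called genes and its promoter repeats 1 motif. It is the region chr8:128746982-128747281 of the plus strand (RefSeq, GRCr8), with 250 bases before and 50 after the transcript start, and capitals mark the matches of 2 motifs read on both strands.
Mobp promoter: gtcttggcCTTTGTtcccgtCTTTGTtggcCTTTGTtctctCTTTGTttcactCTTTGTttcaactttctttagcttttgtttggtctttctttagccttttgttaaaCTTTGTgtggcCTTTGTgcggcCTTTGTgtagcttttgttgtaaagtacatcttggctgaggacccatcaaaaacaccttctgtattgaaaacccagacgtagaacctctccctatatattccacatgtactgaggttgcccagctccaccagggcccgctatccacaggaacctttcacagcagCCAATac
The letters ACAAAG, which SOX factors are known to read, occur 8 times, each time as their reverse complement CTTTGT. The CCAAT box, spelled CCAAT, occurs 1 time, at position 294 of 300, and overlaps none of them. Of 27457 promoters of this length 18.3% hold the SOX letters at least once and 2 (0.00728%) hold them 8 or more times, while 37.7% hold the CCAAT box. Of the 81 genes higher in base 63 have a promoter sequence in the table, and 12 of these (19.0%) hold the SOX letters, against 13.4% of 4706 genes tested, and 32 (50.8%) hold the CCAAT box, against 39.4%. These matches are letters in a window, and binding was not tested.

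Astrocyte genes were higher in base too. Of 19 tested genes 7 rose and 0 fell (8 and 0 with the block), 17 were above 0, and the median was 1.22 log2 units. The shares of all genes that rose were 1.41% and, with the block, 5.24%. Aqp4, the water channel of astrocyte endfeet, had 11.62, 12.28 and 11.39 in base and 8.27, 8.69 and 6.69 in apex (3.88 ± 0.69, adjusted p = 0.00675). Gfap, the intermediate filament of astrocytes that some peripheral glia also make, had 13.55, 12.56 and 13.19 in base and 11.01, 9.93 and 9.11 in apex (3.08 ± 0.65, adjusted p = 0.0198). For both genes the highest apical sample was more than 1 log2 unit below the lowest basal sample. Ntsr2, a neurotensin receptor of astrocytes, had 12.45, 12.09 and 12.64 in base and 10.07, 8.87 and 8.72 in apex (3.18 ± 0.47, adjusted p = 0.00297).

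Further astrocyte genes called were Aldh1l1, a folate enzyme (2.90 ± 0.49), Agt, the precursor of angiotensin (2.88 ± 0.51), and the amino acid transporters Slc7a10 (2.55 ± 0.45) and Slc1a2 (2.71 ± 0.54). Slc1a2, which takes up glutamate, had 9.97, 10.57 and 10.20 in base and 7.45, 7.64 and 7.52 in apex. Its samples lay within 0.60 log2 units in base and 0.19 in apex. Aldoc, a glycolytic enzyme that marks astrocytes in brain, was 1 of the 2 members below 0, at 14.49, 14.78 and 14.84 in base and 14.55, 14.98 and 14.89 in apex (-0.10 ± 0.21, adjusted p = 0.999). The summed intensity of the list was 156896 to 203414 in base and 105069 to 113516 in apex. From 2 to 7 members passed when 1 of the 6 samples was left out, with 2 without base replicate 3 and 3 without apex replicate 3, and 4 passed on the 16-sample platform. In the blocked fit 1 (Ntsr2) passed without pair 1, 5 without pair 2 and 0 without pair 3.

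Other large differences belong to genes outside the oligodendrocyte and astrocyte lists. Fabp7, the fatty acid binding protein of radial and satellite glia, had 14.81, 14.39 and 14.76 in base and 13.34, 12.16 and 10.74 in apex (2.57 ± 0.41, adjusted p = 0.00366). Scrg1, a secreted protein first described in scrapie-infected brain, differed by 3.51 ± 0.60 and Acsbg1, a long-chain acyl-CoA synthetase, by 3.41 ± 0.61. Dao, the D-amino acid oxidase, had 12.86, 12.23 and 12.08 in base and 9.48, 9.12 and 6.89 in apex (3.90 ± 0.76, adjusted p = 0.0124). Again apical replicate 3 was lowest, and Dao was called in 2 of the 6 settings that leave out a sample. Mmd2 (2.30 ± 0.36) and Cbs, which makes cystathionine from homocysteine (2.61 ± 0.42), passed whichever sample was left out.

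Of 21 Schwann cell myelin genes 0 rose and 0 fell in either fit, and the median was -0.03. Mbp, which central and peripheral myelin share, had 14.79, 14.13 and 14.50 in base and 14.24, 13.69 and 13.50 in apex (0.66 ± 0.33, adjusted p = 0.622). The portions of Mbp overlap, and replicate 1 was the highest in both. The 17 genes of satellite glia and non-myelinating Schwann cells had a median of -0.02 and a summed intensity of 197619 to 207439 in base and 134811 to 162586 in apex, with Fabp7 and Gfap higher in base and, with the block, L1cam, an adhesion protein of axons and glia, lower (-1.26 ± 0.68, adjusted p = 0.675; adjusted p = 0.0147 with the block).

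**Figure D2:**
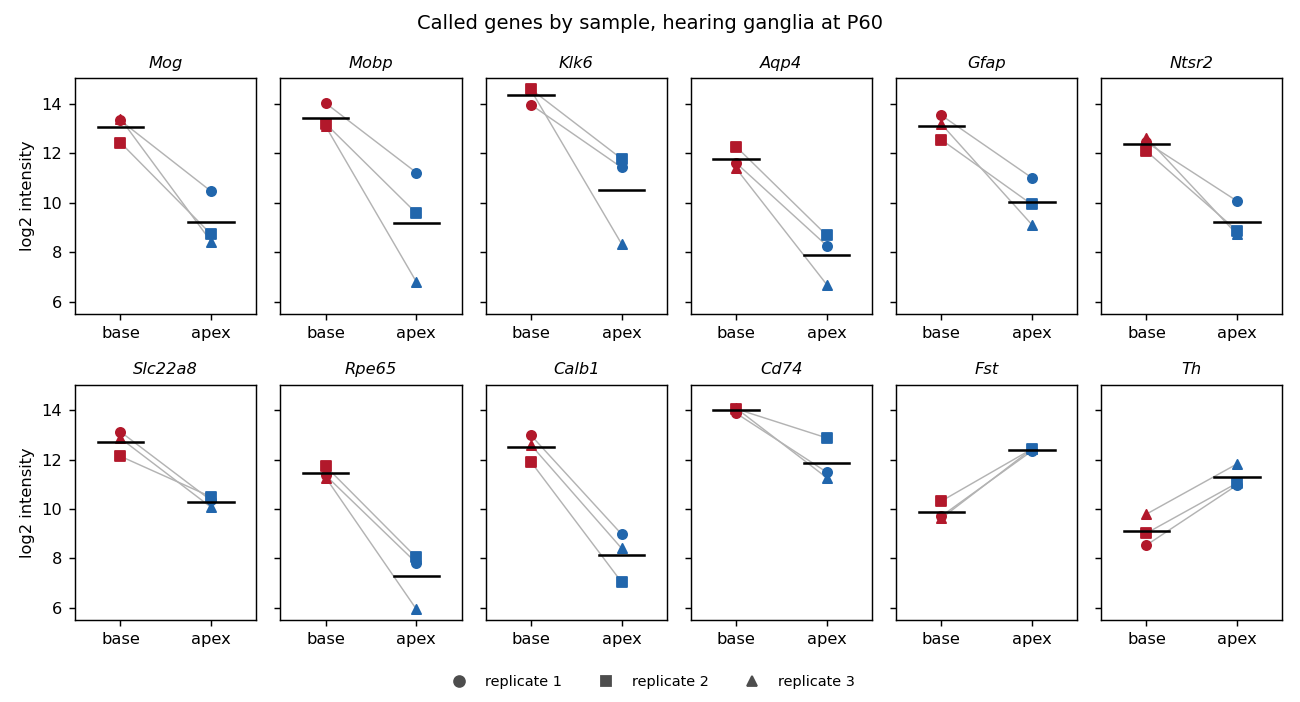
Log2 intensity of 12 called genes in base (red, left) and apex (blue, right), with a marker shape per replicate number, lines joining equal numbers and bars at the group means. For each gene the portions do not overlap, Fst and Th are lower in base, and the apical samples of Mobp, Klk6 and Rpe65 spread widely with replicate 3 lowest.

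The 2 genes that fell in base were Fst and Th. Fst encodes follistatin, a secreted inhibitor of activin and BMP signals. It had 9.71, 10.32 and 9.62 in base and 12.35, 12.43 and 12.43 in apex, a difference of -2.52 ± 0.33 (adjusted p = 0.00146). The apical samples lay within 0.08 log2 units, and the call held whichever of the 6 samples was left out. Th, the tyrosine hydroxylase that starts catecholamine synthesis, had 8.54, 9.02 and 9.79 in base and 10.97, 11.05 and 11.83 in apex (-2.16 ± 0.52, adjusted p = 0.0408). Its groups do not overlap, but the call was lost whichever of the 6 samples was left out (adjusted p up to 0.219).

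The promoter of Th is shown as that of a called gene lower in base. It is the region chr1:207508169-207508468 of the minus strand (RefSeq, GRCr8), with 250 bases before and 50 after the transcript start, and capitals mark the only match among the motifs searched.
Th promoter: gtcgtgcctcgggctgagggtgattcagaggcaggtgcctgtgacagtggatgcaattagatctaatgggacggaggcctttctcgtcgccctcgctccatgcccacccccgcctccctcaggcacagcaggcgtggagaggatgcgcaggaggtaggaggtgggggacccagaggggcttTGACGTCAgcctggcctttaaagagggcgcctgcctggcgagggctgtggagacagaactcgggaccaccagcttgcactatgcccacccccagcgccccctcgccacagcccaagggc
The match is TGACGTCA, the cAMP response element, which reads the same on both strands and starts at position 182 of 300. It occurs in 1.91% of 27457 promoters and in 3.31% of those of the 4706 genes tested. The SOX letters, the letters CTGGCAC of the myelin regulator MYRF, the TATA box (letters TATAAA) and the CCAAT box were searched on both strands too and do not occur in this window.

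Few signals of patterning and retinoid handling passed without the block. Of 22 genes of Wnt, Shh, BMP and retinoid patterning 2 rose and 1 (Fst) fell, 9 and 1 with the block, and the median was 0.83. Among all genes 1.41% rose and 0.0348% fell, 5.24% and 1.2% with the block. Stra6, the cell surface receptor that takes up retinol, had 9.99, 9.12 and 10.03 in base and 8.48, 8.21 and 8.60 in apex (1.28 ± 0.28, adjusted p = 0.0254). Aldh1a1, which makes retinoic acid, had 14.30, 13.71 and 13.98 in base and 12.68, 12.27 and 12.36 in apex (1.56 ± 0.38, adjusted p = 0.0452). Both stood apart by portion in every sample, yet each was called in at most 1 of the 6 settings that leave out a sample.

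Enzymes of retinoid handling outside the list were called too. Rpe65, the retinoid isomerase of the eye's visual cycle, had 11.36, 11.73 and 11.27 in base and 7.82, 8.04 and 5.95 in apex (4.19 ± 0.65, adjusted p = 0.00366). Rdh10, a retinol dehydrogenase named after its values were seen, differed by 0.85 ± 0.20 (adjusted p = 0.0339). Rdh10 was called in 1 of the 6 settings that leave out a sample (adjusted p up to 0.286), and Rpe65 in all 6. With the block the called genes also included Bmp4, the bone morphogenetic protein that follistatin can bind (1.65 ± 0.41, adjusted p = 0.0505; adjusted p = 0.0116 with the block), Aldh1a2 (2.22 ± 0.56, adjusted p = 0.0578; 0.0289 with the block) and Crabp2, a carrier of retinoic acid (0.98 ± 0.26, adjusted p = 0.0725; 0.0184 with the block).

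Hoxa2, a hindbrain patterning gene, had 10.88, 8.91 and 11.05 in base and 7.60, 4.99 and 6.53 in apex (3.91 ± 1.0, adjusted p = 0.0605; 0.00956 with the block). Of 8 genes of cerebellum and brainstem 1 rose and 0 fell, 2 and 0 with the block, with a median of 1.08. The called member was Calb1, the calcium buffer calbindin, with 12.99, 11.91 and 12.60 in base and 8.99, 7.04 and 8.41 in apex (4.35 ± 0.79, adjusted p = 0.0071). In each pair of equal number its basal sample was about 4 log2 units or more above its apical one. Calb1 lost its call without base replicate 3 (adjusted p = 0.0559). The astrocyte and oligodendrocyte genes above lie higher in the same samples, and the part of central nervous tissue in these values was not tested.

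Membrane transporters formed a large family among the called genes, a grouping made after their values were seen. Of 141 tested solute carriers 12 rose and 0 fell (21 and 1 with the block), whereas the family's median was 0.09. Over all genes 1.41% rose and 0.0348% fell (5.24% and 1.2% with the block). Slc22a8, the organic anion transporter 3, had 13.13, 12.13 and 12.86 in base and 10.35, 10.49 and 10.07 in apex (2.41 ± 0.31, adjusted p = 0.00146). Slc6a20a, a proline transporter, had 14.09, 13.54 and 14.35 in base and 11.41, 12.10 and 11.41 in apex (2.36 ± 0.34, adjusted p = 0.00292). For both genes the portions did not overlap. Slc22a2, the organic cation transporter 2, differed by 0.94 ± 0.18, Slc6a13, a GABA and taurine transporter, by 1.10 ± 0.22, and Slc47a1, an exporter of organic cations, by 3.49 ± 0.82. Slc15a2, a peptide transporter (2.41 ± 0.54), Slc38a3, a glutamine transporter (1.76 ± 0.32), and Slc9a2, a sodium-proton exchanger (2.27 ± 0.53), passed too. So did the mitochondrial carriers Slc25a18 (2.81 ± 0.49) and Slc25a21 (2.48 ± 0.39). Slc47a1, Slc15a2 and Slc9a2 were each called in 0 of the 6 settings that leave out a sample. Slc6a13 was called in 2 of these settings, Slc22a2 in 3, Slc38a3 in 4 and Slc25a18 in 5. Slc6a12, the betaine and GABA transporter, passed with the block (2.33 ± 0.62, adjusted p = 0.0798 without it and 0.00155 with it) and was 1 of 2 genes that still did without pair 3.

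Other enzymes and carriers were higher in base as well. Fmo1, a flavin monooxygenase, differed by 2.24 ± 0.49 (adjusted p = 0.0254). Fabp4, the fatty acid binding protein of fat cells and some endothelia, had 10.48, 12.12 and 11.15 in base and 7.59, 7.87 and 5.76 in apex (4.18 ± 0.80, adjusted p = 0.0102). Il13ra2, a decoy receptor for interleukin 13, had 11.50, 11.60 and 11.49 in base and 7.17, 8.93 and 6.81 in apex (3.89 ± 0.88, adjusted p = 0.0271). Basal samples of Il13ra2 lay within 0.11 log2 units, while the apical ones spread over 2.12. Kcnj13, an inward rectifier potassium channel on the stria list, had 13.64, 12.95 and 12.78 in base and 10.82, 11.41 and 9.41 in apex (2.58 ± 0.48, adjusted p = 0.00845). Of 7 stria vascularis and melanocyte genes it and Cldn11 rose, 0 fell, and the median was 0.60. In all, 55 of the 83 called genes were on none of the 39 lists. Among these, named after their values were seen, were Tf, the iron carrier transferrin (1.12 ± 0.25), Tnnt2, a troponin (3.10 ± 0.55), Lcat, which esterifies cholesterol (2.02 ± 0.37), and Thrsp, a regulator of lipid synthesis (2.83 ± 0.51). Tf was called in 0 of the 6 settings that leave out a sample, and Fmo1 and Il13ra2 in 1 each. Fabp4, Kcnj13 and Lcat were each called in 3, Tnnt2 in 5 and Thrsp in 6.

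Immune genes lay higher in base, mostly as calls of the block. Of 19 macrophage and microglia genes 1 rose and 0 fell, 9 and 0 with the block, 18 were above 0 and the median was 1.20. Among all genes 1.41% rose, 5.24% with the block, and 2506 of 5745 were above 0. Of 11 genes of MHC class II presentation, which shows antigen to helper T cells, 2 rose and 0 fell, 7 and 0 with the block, and the median of 1.57 was the highest of the 39 lists. The immune lists share genes: Ctss is a call of both lists, and C1qa and C1qb are block calls of the macrophage and complement lists. Cd74, the invariant chain of class II, had 13.88, 14.06 and 14.08 in base and 11.49, 12.88 and 11.27 in apex (2.13 ± 0.47, adjusted p = 0.0254). Ctss, the protease that trims it, had 14.14, 14.12 and 14.18 in base and 12.91, 13.08 and 12.72 in apex (1.24 ± 0.23, adjusted p = 0.0088). The basal samples of Ctss lay within 0.07 log2 units of each other. Cd74 was called in 1 of the 6 settings that leave out a sample and Ctss in 3. Of the class II list 0 genes were called without apex replicate 1, apex replicate 3 or base replicate 3, 1 without base replicate 1 or base replicate 2, and 4, RT1-Da and RT1-Db1 included, without apex replicate 2. Leaving out P32 hearing apex replicate 1 gave 3 calls in the class II list and 8 in the macrophage list, and leaving pair 1 or pair 3 out of the blocked fit gave 0 in both.

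Of the class II chains, RT1-Db1, RT1-Da, RT1-Ba and RT1-DMb passed with the block and not without it, while RT1-Bb and RT1-DMa passed in neither fit. RT1-Db1 had 12.57, 12.84 and 12.52 in base and 10.14, 11.63 and 9.83 in apex (2.11 ± 0.58, adjusted p = 0.0944; 0.0116 with the block). RT1-Da had 13.36, 14.47 and 13.10 in base and 10.47, 13.25 and 9.91 in apex, so that apical replicate 2 reached the basal range (2.43 ± 0.76, adjusted p = 0.153; 0.0183 with the block). Class II genes are alike in sequence, and signal shared between their probes was not tested. Csf1r, the receptor that keeps macrophages alive, had 12.11, 12.21 and 12.78 in base and 10.71, 11.19 and 11.05 in apex (1.38 ± 0.38, adjusted p = 0.0878; 0.0396 with the block). Adgre1, a surface receptor that marks macrophages, had 12.53, 12.78 and 12.90 in base and 11.00, 11.75 and 11.51 in apex (1.32 ± 0.35, adjusted p = 0.082; 0.0122 with the block). The 4 macrophage markers Cd68, Aif1, Csf1r and Adgre1 summed to 17871 to 23790 intensity units in base and 8053 to 9841 in apex, and the part of macrophage number in the immune lists was not tested.

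Complement, an extracellular defence cascade, had 0 of 19 genes called in either direction, and 8 higher and 0 lower with the block, with a median of 0.87. The block called 5.24% of all genes higher and 1.2% lower. The blocked count was 0 without pair 1, 1 (C6) without pair 2 and 0 without pair 3. C1qa, C1qb and C3 are early and central parts of the cascade. C1qa was at 1.20 ± 0.38, C1qb at 1.22 ± 0.41 and C3 at 2.06 ± 0.71. Among 22 chemokines and cytokines 0 passed, and with the block 5 were higher, including Cxcl14 (1.98 ± 0.58) and Ccl2 (2.02 ± 0.67), and Ccl11 was lower (-1.22 ± 0.70), with a median of 0.65. The interferon response had no single direction: of 22 genes 0 passed in either fit and the median was -0.26. By pair the interferon median was 0.227, -0.733 and -0.325 in pairs 1, 2 and 3. The medians were 0.83 for 5 genes of T, B and NK cells (0 called, 2 higher with the block) and 0.999 for 7 of neutrophils, mast cells and marrow (0 called in either fit). For the latter list the pair medians were -0.152, 0.859 and 2.713 in pairs 1, 2 and 3.

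Bone and matrix genes lay higher in base as well. Of 13 bone and osteoblast genes 1 rose and 0 fell, 6 and 0 with the block, and the median was 0.88. The shares of all genes that rose were 1.41% and, with the block, 5.24%. Bglap, the osteoblast protein osteocalcin, had 12.92, 14.11 and 14.12 in base and 10.66, 12.76 and 10.84 in apex (2.30 ± 0.51, adjusted p = 0.0254). Apical replicate 2 came within 0.16 log2 units of the lowest basal sample, and leaving it out gave 2 calls in this list, where leaving out any other of the 6 samples gave 0. Ctsk, the bone-resorbing protease of osteoclasts, had 14.46, 14.47 and 14.51 in base and 13.28, 13.92 and 13.40 in apex (0.95 ± 0.22, adjusted p = 0.0323). The call of Ctsk held in 1 of the 6 settings that leave out a sample. Ibsp, bone sialoprotein, was at 1.09 ± 0.31 (adjusted p = 0.112; 0.00956 with the block). The 4 bone markers summed to 30949 to 38112 in base and 9564 to 18503 in apex, and the part of adhering bone in the other differences was not tested.

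Of 9 osteoclast and cartilage genes Ctsk rose (with the block Acp5 too, and Comp fell), with a median of -0.16. Fibroblast and extracellular matrix genes had 0 of 22 called and 7 higher with the block, among them Col3a1, a fibrillar collagen (0.91 ± 0.24), and Aspn, asporin (2.31 ± 0.59), with a median of 0.51. With the block 5.24% of all genes were higher. For 18 endothelium and pericyte genes, 0 called and 1 higher with the block, the median was 0.01. Skeletal muscle and tendon (9 genes) and red blood cells (8 genes) each had 0 called in either fit and a median of 0.00. Of 17 cochlear supporting and epithelial cell genes 0 passed, 2 were higher with the block, and the median was 0.42, while Gjb6, the gap junction protein connexin 30, was at 0.57 ± 0.21. Of 4 keratinizing and mucosal genes 0 passed, although Bpifa1, a secretory protein of airway and middle ear lining, had the largest difference of all genes tested, with 13.53, 13.41 and 12.86 in base and 8.64, 6.47 and 8.26 in apex (5.48 ± 1.58, adjusted p = 0.116). With P32 hearing apex replicate 1 left out, Bpifa1 passed with and without the block.

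**Figure D3:**
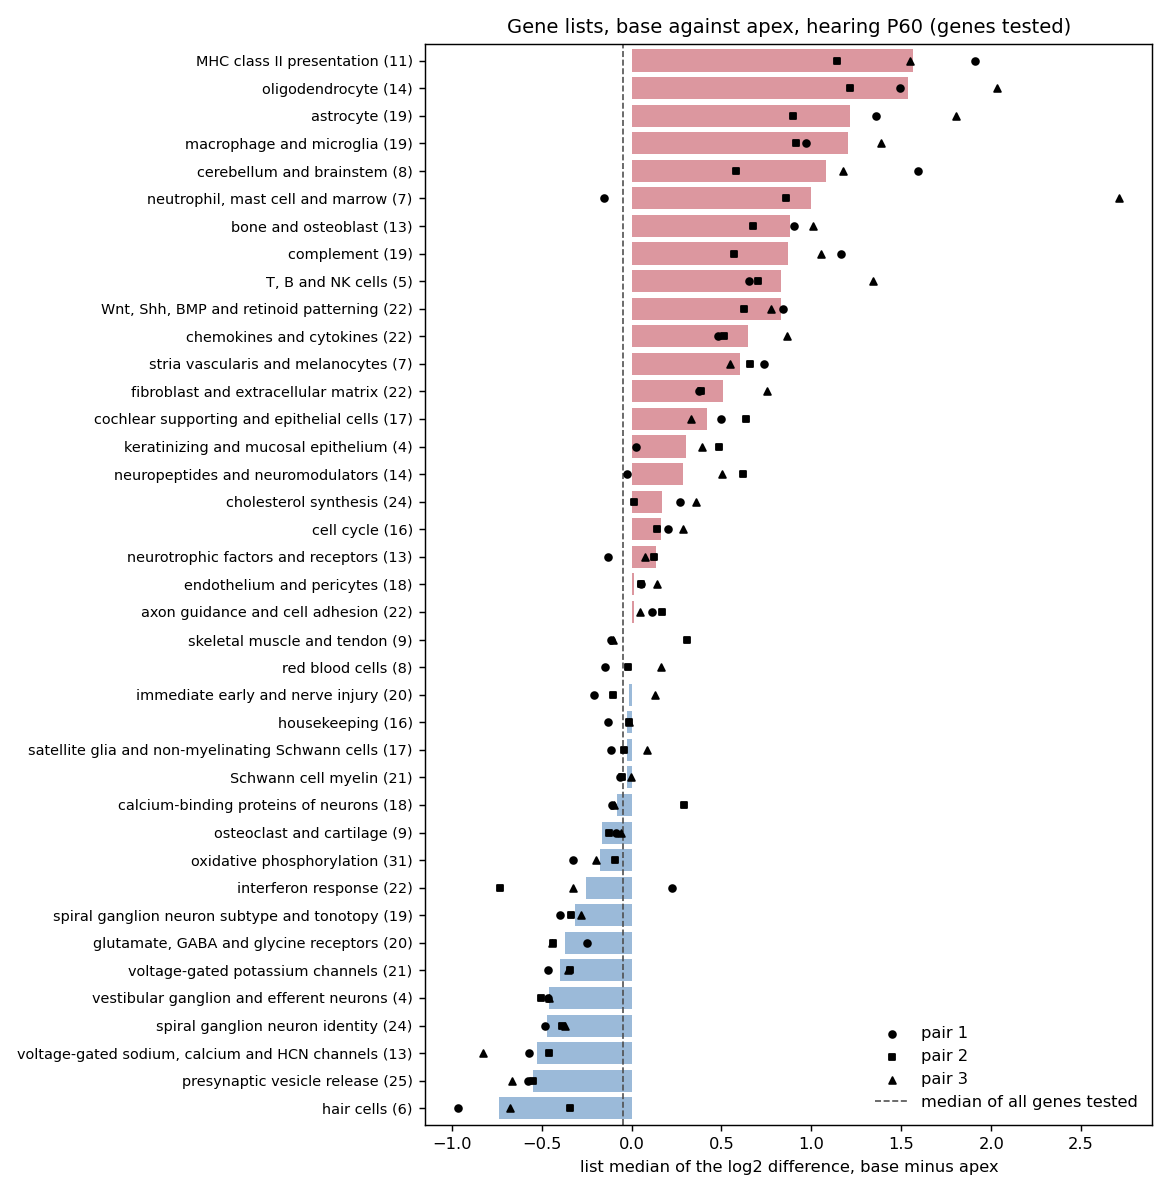
Bars give the median log2 difference (base minus apex) of each of 39 gene lists, with the number of genes tested in brackets, and markers give the median in each pair of equal replicate number. The MHC class II, oligodendrocyte, astrocyte and macrophage lists lie highest, at 1.20 to 1.57, and the lists of neuron identity, channels, receptors and presynaptic release lie below the dashed median of all genes.

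Most neuronal lists had medians below 0 and few calls. Of 25 genes of presynaptic vesicle release 0 passed, 25 were below 0 and the median was -0.55. With the block 4 fell, Dnm1, Syn1, Sv2c and Syp, against a background of 1.2% of genes lower. Of these calls 0 were left without pair 1, 1 (Dnm1) without pair 2 and 0 without pair 3. Dnm1, the dynamin that retrieves synaptic vesicles, had 11.17, 10.97 and 10.23 in base and 12.54, 12.05 and 11.46 in apex (-1.23 ± 0.69, adjusted p = 0.719; 0.00671 with the block). The portions of Dnm1 did not overlap and replicate 3 was lowest in both. Syp, the vesicle protein synaptophysin, had 11.01, 11.98 and 12.22 in base and 12.26, 12.78 and 13.31 in apex (-1.05 ± 0.39, adjusted p = 0.311; 0.0433 with the block). Snap25, a vesicle fusion protein, had 14.92, 14.99 and 15.09 in base and 15.16, 15.16 and 15.37 in apex, and its difference was -0.23 ± 0.27 (adjusted p = 0.999). The list summed to 123922 to 156364 intensity units in base and 160754 to 217984 in apex.

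Of 24 genes of spiral ganglion neuron identity 0 passed, 21 were below 0 and the median was -0.47. With the block L1cam and Gata3 fell. Gata3, a transcription factor of ganglion development, had 11.94, 11.71 and 11.08 in base and 12.86, 12.76 and 12.38 in apex (-1.09 ± 0.64, adjusted p = 0.761; 0.0459 with the block). Tubb3, the neuronal tubulin, had 13.57, 12.80 and 13.88 in base and 14.02, 13.39 and 14.24 in apex (-0.47 ± 0.39, adjusted p = 0.954), with overlapping portions. Nefh, a neurofilament, had 15.41, 14.81 and 13.90 in base and 15.53, 15.04 and 14.01 in apex (-0.16 ± 0.85). The difference of Nefh between replicates exceeded that between portions. This list summed to 275167 to 317918 in base and 345203 to 411798 in apex. L1cam, Gata3, Dnm1 and Syn1 were named after their values were seen, and the part of the glial and immune RNA listed above in the lower neuronal share was not tested.

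Ion channels, which set how ganglion neurons fire along the frequency axis, gave few calls. Of 21 voltage-gated potassium channel genes 0 passed, 17 were below 0 and the median was -0.40, with 2 lower with the block, 1 of them Kcnab2, a channel beta subunit (-1.25 ± 0.75). Kcnc1, the fast Kv3.1 channel, had 12.12, 10.97 and 10.73 in base and 13.57, 11.93 and 12.24 in apex (-1.31 ± 0.67, adjusted p = 0.649). Kcna1, the low-threshold Kv1.1 channel, had 14.58, 14.37 and 14.68 in base and 15.02, 14.55 and 14.95 in apex (-0.30 ± 0.23, adjusted p = 0.923). Kcnd2, the A-type Kv4.2 channel, went the other way, with 10.60, 9.47 and 10.07 in base and 8.63, 7.29 and 8.37 in apex (1.95 ± 0.61, adjusted p = 0.157). Its portions did not overlap. Of 13 voltage-gated sodium, calcium and HCN channel genes 0 passed, 12 were below 0 and the median was -0.53, with Cacnb3, a calcium channel subunit, lower with the block (-0.95 ± 0.87, adjusted p = 0.98; 0.0466 with the block).

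Of 20 glutamate, GABA and glycine receptor genes 1 rose and 0 fell, 1 and 3 with the block, and the median was -0.37. Gabrb1, a GABA-A receptor subunit, had 9.61, 9.77 and 9.66 in base and 6.98, 7.23 and 5.61 in apex (3.07 ± 0.61, adjusted p = 0.0131). The call of Gabrb1 held in 2 of the 6 settings that leave out a sample. Homer1, a scaffold of postsynaptic glutamate receptors, had 11.18, 9.38 and 9.25 in base and 11.70, 10.37 and 10.52 in apex (-0.93 ± 0.42, adjusted p = 0.516; 0.0135 with the block). The portions of Homer1 overlap, since basal replicate 1 exceeded 2 apical samples, but each basal sample was below its own pair. Grin1, the obligatory NMDA receptor subunit (-1.09 ± 0.65), and Gabbr2, a GABA-B receptor subunit (-0.91 ± 0.95), were the other block calls.

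**Figure D4:**
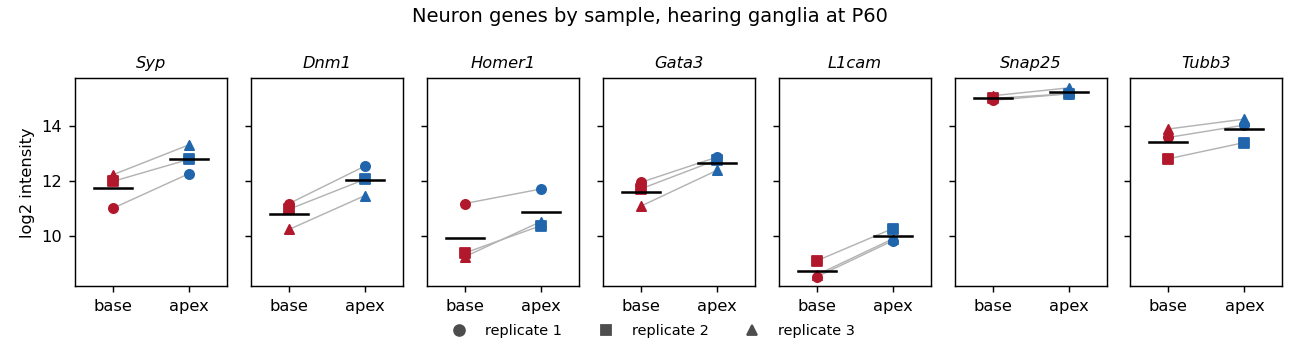
Log2 intensity of 7 neuronal genes in base (red, left) and apex (blue, right), with lines joining equal replicate numbers and bars at the group means. Every neuronal gene shown is lower in base in each of 3 pairs, while none passed without the block. Except Snap25 and Tubb3, these genes are block calls lower in base, so their shared direction describes the choice of genes. Other genes of the neuronal lists, such as Kcnd2, Gria1 and Gabrb1, were higher in base in each of 3 pairs.

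Of 19 genes of neuron subtype and tonotopy Calb1 rose and Th and Fst fell, with a median of -0.32. With the block Cdh13, a cadherin (0.77 ± 0.62 in the unblocked fit, adjusted p = 0.0147 with the block), was higher and Gata3 lower as well. Calb2, calretinin, which marks a subtype of the large myelinated neurons in mouse, had 15.63, 15.31 and 15.57 in base and 15.67, 15.65 and 15.68 in apex (-0.16 ± 0.19, adjusted p = 0.999). Prph, the filament peripherin of the small unmyelinated neurons, had 11.03, 11.29 and 11.78 in base and 10.84, 10.70 and 10.90 in apex (0.55 ± 0.37, adjusted p = 0.839). Of 18 neuronal calcium-binding proteins Calb1 and Ncald rose, 0 fell (Ncs1 with the block), and the median was -0.08. Ncald, neurocalcin delta, had 10.99, 9.45 and 10.26 in base and 8.44, 6.42 and 7.65 in apex (2.73 ± 0.60, adjusted p = 0.0251). For Ncald the lowest basal sample was 1.02 log2 units above the highest apical one. Its call was nevertheless lost whichever of the 6 samples was left out (adjusted p up to 0.166).

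Growth factors of these neurons gave no call in the unblocked fit. Of 13 neurotrophic factors and receptors 0 passed, and with the block Igf1 was higher (0.98 ± 0.38) and Gfra1, the GDNF receptor, lower (-0.85 ± 0.25), with a median of 0.13. Bdnf had 7.75, 8.84 and 7.41 in base and 7.15, 5.85 and 6.17 in apex (1.61 ± 0.69, adjusted p = 0.454). Ntf3, neurotrophin 3, had 9.28, 10.11 and 8.91 in base and 7.96, 9.26 and 7.71 in apex (1.13 ± 0.54, adjusted p = 0.571). Bdnf was dim but did not overlap between portions, and Ntf3 was higher in base in each of 3 pairs with overlapping groups. Their receptors were bright and close to 0 in difference, Ntrk2 at 0.10 ± 0.36 and Ntrk3 at -0.21 ± 0.36.

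Of 14 neuropeptides and neuromodulators Gal rose and Th fell (with the block Adcyap1 rose and Chga fell too), and the median was 0.28. Gal, the peptide galanin, had 11.06, 11.59 and 10.84 in base and 8.04, 8.51 and 6.85 in apex (3.36 ± 0.75, adjusted p = 0.0254). The call of Gal held in 1 of the 6 settings that leave out a sample. Tac1, the substance P precursor, had 10.41, 10.95 and 12.65 in base and 7.54, 6.68 and 7.59 in apex (4.07 ± 1.20, adjusted p = 0.123). Tac1 had 1 of the largest differences and did not pass in either fit (adjusted p = 0.082 with the block). With P32 hearing apex replicate 1 left out, Tac1 passed with and without the block. Ucn2, the peptide urocortin 2, was dim at 5.56, 7.17 and 6.71 in base and 6.22, 6.69 and 6.62 in apex (-0.03 ± 0.79).

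The remaining lists had 0 genes called without the block. Medians were -0.18 for 31 genes of oxidative phosphorylation, all below 0, 0.17 for 24 of cholesterol synthesis (2 higher with the block), 0.16 for 16 of the cell cycle and -0.02 for 16 housekeeping genes. They were -0.01 for 20 immediate early and nerve injury genes, 0.01 for 22 of axon guidance (1 higher and 1 lower with the block) and -0.46 for 4 of vestibular and efferent neurons (Irx2 lower with the block). For 6 hair cell genes the median was -0.74. Ocm, the calcium buffer oncomodulin of outer hair cells, had 7.74, 9.26 and 9.92 in base and 11.62, 6.47 and 12.73 in apex (-1.30 ± 1.42, adjusted p = 0.999). The apical samples of Ocm spread over more than 6 log2 units, and the part of remaining hair cells in these samples was not tested.

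The same portions were also compared in hearing rats at P32 and in deafened rats at P60, which asks whether the basal-apical difference depends on age or on hair cell loss. Deafened rats had received kanamycin, an aminoglycoside toxic to hair cells, at 400 mg/kg daily from P8 to P16. No gene's difference at P60 in hearing rats passed as other than that at P32 (0.0% called by limma, 57 genes or 0.992% with an unadjusted p under 0.05) or that in deafened P60 rats (0.0% called, 25 genes or 0.435% unadjusted). With the block both counts were 0 as well, with 244 and 304 genes at an unadjusted p under 0.05. Without P32 hearing apex replicate 1 the count against P32 was again 0. The genes at an unadjusted p under 0.05 were then 27, and 96 with the block. A p that misses the threshold does not show that the differences are alike.

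Of the 83 genes, 83 had the same sign in hearing P32 ganglia and 83 in deafened P60 ganglia. How many of all genes tested keep their sign was not counted, so these counts have no background beside them. In deafened P60 ganglia 29 of the 83 were among the 42 genes called there (0.731% of all genes, with 8.77% at an unadjusted p under 0.05). In hearing P32 ganglia 0 were, where 0 genes were called and 65 (1.13%) had an unadjusted p under 0.05, and with P32 hearing apex replicate 1 left out, 4 of them were among 6 called (0.104%, with 7.12% at an unadjusted p under 0.05). Over the 81 genes higher in base the median difference was 2.36 log2 units in hearing P60 ganglia, 0.80 in hearing P32 ganglia (1.4 without that sample) and 1.70 in deafened P60 ganglia. Since the 81 were chosen by their difference at P60, their larger median there is a description.

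Mog was at 3.85 in hearing P60 ganglia, 1.48 ± 0.53 in hearing P32 ganglia and 2.87 ± 0.53 in deafened P60 ganglia. The 6 genes with the smallest p for P60 against P32 were Slc22a8, Slc6a20a, Fabp7, Cbs, Mmd2 and Mog, each with a larger difference at P60. For Slc22a8 the difference of differences was 1.68 ± 0.44 and for Mog 2.37 ± 0.76, both with an adjusted p of 1. Fst was lower in base in all 3 pairs of groups, at -2.52 in hearing P60 ganglia, -2.0 ± 0.33 in hearing P32 ganglia (adjusted p = 0.054) and -3.68 ± 0.33 in deafened P60 ganglia (adjusted p = 9.24e-06). Against the deafened rats the 6 genes with the smallest p were Igsf1, Tm7sf2, Rapgef5, Fst, Slc22a8 and Cacna2d1. Igsf1, an immunoglobulin family membrane protein, was at 0.63 ± 0.36 in hearing and 2.16 in deafened P60 ganglia, and Tm7sf2, a sterol reductase, at 1.08 ± 0.27 in hearing and 0.02 in deafened P60 ganglia.

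**Figure D5:**
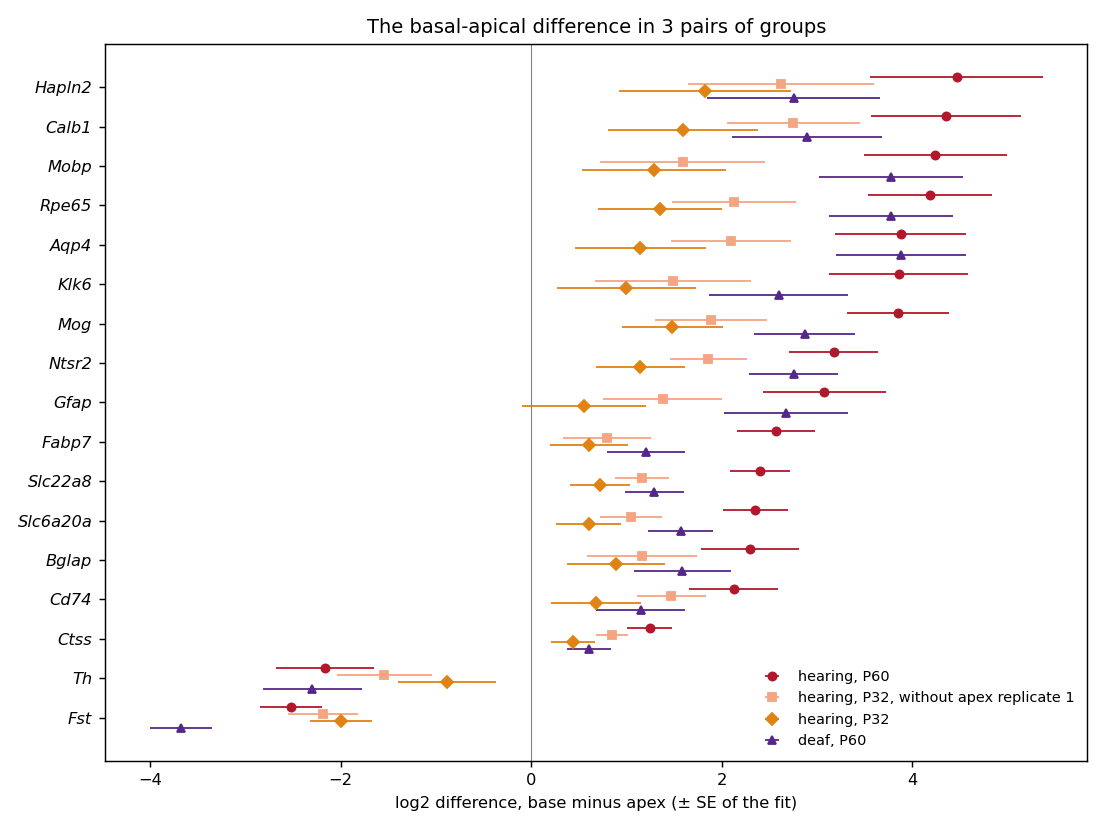
Log2 difference (base minus apex) ± SE of the fit for 17 called genes in hearing P60 ganglia (red circles), hearing P32 ganglia without (light squares) and with apex replicate 1 (orange diamonds) and deafened P60 ganglia (purple triangles). The genes were chosen by their hearing P60 difference, and all 17 keep its sign in the other pairs of groups.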

How the data were processed

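Gene expression was measured on 1-colour NimbleGen arrays in 24 samples, 8 groups of 3. The deposited values are intensity values on a linear scale that the authors normalized with RMA, per the submitters' processing notes, and per the labels' descriptions values of technical replicates were averaged. The RMA version, the joint normalization of the platforms and the rule that selected the 14138 transcripts deposited for the whole series are not given in the sources used here. A RefSeq table (GRCr8, names only) named 5823 transcripts and not the other 8315. These cover 5745 genes. For the 61 genes with several transcripts, the one with the highest mean was used.

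Log2 was taken here. The linear model of limma 3.58.1 (R 4.3.3) with empirical Bayes moderation included every one of the 24 samples, each of the 8 groups having its own mean, and platform (replicate 1 on an 8-sample, replicates 2 and 3 on a 16-sample platform) as an additive term, which leaves 15 residual degrees of freedom. Tests are two-sided, and adjusted p is by Benjamini-Hochberg with a threshold of 0.05. The alternative with the replicate number within each age and condition as a block leaves 8. Numbers were taken to pair the portions because deviations of base and apex of equal number from their group means correlated at 0.819, 0.879 and 0.787, against -0.645 to -0.067 for unequal numbers. The 3 deviations of a portion sum to 0, so the negative values follow in part from the positive ones. Replicate 1 also differs in platform, and the correlations do not show that paired portions came from the same ears. Beyond the pooling of 4 to 6 ganglia nothing further is known about how separate the replicates are. An exact permutation test of 3 against 3 cannot go below 0.1 and was not used. The fit was tested on simulated data.

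Genes are named by a rule: the 15 largest called differences per direction, up to 4 members of each of 39 lists by smallest p, a list of 17 genes of interest and the 6 smallest p of each difference of differences. Genes outside it were chosen after their values were seen: Thrsp, Adtrp, Slc25a21, Slc1a2, Aldoc, L1cam, Rdh10, Aldh1a2, Crabp2, Slc22a2, Slc6a13, Slc15a2, Slc38a3, Slc9a2, Slc25a18, Slc6a12, Fmo1, Tf, Tnnt2, Lcat, Cd68, Aif1, Ccl11, Dnm1, Syn1, Snap25, Gata3, Kcnab2, Cacnb3, Grin1, Gabbr2, Chga, Cdh13, C6, RT1-Ba, RT1-Bb, RT1-DMa, RT1-DMb and Ocm. The comparison and the lists were chosen with earlier results of these data known. Of 1094 list symbols 559 were tested. Lists are described by counts and medians without a test. Some genes are not reported here.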

Additional observations from a re-analysis of the deposited data

How the results depend on the processing

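The comparison of base and apex in hearing P60 ganglia called 83 genes. The count was 180 with P60 samples alone, 49 with P60 hearing samples alone, 16 on the 16-sample platform alone, 464 with a random block and 1227 with array weights, whose estimation did not converge. Leaving out 1 of the 6 samples gave 17 to 82 calls, and leaving out P32 hearing apex replicate 1 gave 163. With the replicate block, which uses the pairing of equal numbers, it was 370, and 1308 with P60 hearing samples alone. Settings added after seeing the data left a pair out of the blocked fit, which gave 10 without pair 1, 114 without pair 2 and 2 without pair 3, and 580 without P32 hearing apex replicate 1. The cause of these shifts was not tested, other than that some settings hold fewer samples. The block ended none of the 83 calls, and of the calls it added the report gives those in the lists and genes it describes. Counts under other normalization, pseudocount, transcript choice, dim-gene filter, trend and platform-term settings stayed within 1.5 times of 83. The test of whether the basal-apical difference differs between hearing and deafened P60 ganglia had 1 call (Pbk) with array weights and 0 otherwise. No called gene that the report names changed sign under these settings. The median difference of all genes, -0.04, was 0.01 without apex replicate 3 and 0.02 without base replicate 2. Dim apical values, 3 samples a portion and the amplification of RNA limit the size of single differences.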
